A study of Mus musculus with 16 samples.

Results

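Small nucleolar RNAs (snoRNAs), the small Cajal body RNAs, the long transcripts that carry them and the RNA subunits of RNase P and RNase MRP were followed in the striatum of 16 mice. The members were all genes of the count table whose symbol begins with Snord, Snora, Scarna or Snhg, together with Gas5, Rmrp and Rpph1, and were chosen by their reads: at least 20 summed over the 16 libraries. Of 137 such genes, 98 passed, out of 24421 genes in the table, and 15 of the 39 others had no read. The 98 members were 46 Snord genes (box C/D snoRNAs), 27 Snora genes (box H/ACA snoRNAs), 7 Scarna genes, 16 long host transcripts (15 Snhg genes and Gas5) and 2 RNase RNAs. Because the summed reads chose them, their presence and level are given as a description and not tested.

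Striatal RNA was sequenced from mice aged 13 months in 4 groups of 4. BACHD mice, a model of Huntington's disease, hold mutant human huntingtin on a bacterial artificial chromosome, and the other genotype was labelled Control. Each mouse had been injected with either a control virus or a virus that overexpresses Foxp2, a forkhead transcription factor. In the group names the genotype precedes the virus. They are Con+Con and Con+Foxp2 for control mice, and BACHD+Con and BACHD+Foxp2 for the others. All 16 mice had therefore received a virus, and no uninjected group was analysed here. The sources used here do not name the virus type, its promoter or the infected cells. The targeted gene followed the labels: Foxp2 stood at 118 ± 26.7 CPM (reads scaled to the library size, mean ± SD, n = 4) in Con+Con and 119 ± 28.6 in BACHD+Con, against 4015 ± 431 in Con+Foxp2 and 1595 ± 288 in BACHD+Foxp2. The level of the overexpressed gene was thus lower in the injected BACHD mice than in the injected control mice, with no overlap between the 2 groups.

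Box C/D snoRNAs guide the methylation of ribose in ribosomal and spliceosomal RNA, box H/ACA snoRNAs guide the change of uridine to pseudouridine, and small Cajal body RNAs do the same for spliceosomal RNAs. In mammals most are cut from introns of host genes, many of which encode ribosomal proteins or translation factors, while some hosts, such as Gas5 and the Snhg genes, are spliced RNAs with little or no known protein product. Rmrp and Rpph1 are not cut from introns but have promoters of their own. RNase P trims the 5′ end of transfer RNA precursors and RNase MRP cuts the precursor of ribosomal RNA.

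The sequences of the members whose values are given most often are shown for their class boxes. They are GENCODE M21 transcripts, build GRCm38 (mm10), printed 5′ to 3′ on the strand of the RNA. Capitals mark a C box, searched as ATGATGA or GTGATGA in the first 25 bases, a D box, searched as CTGA in the last 15 bases, or the ACA trinucleotide in the last 10 bases of the H/ACA class. These 3 motifs were searched on the given strand only. The first 4 are box C/D RNAs, the next 3 are box H/ACA RNAs, and Rmrp was not searched. Snord22 is on chr19:8725866-8725991 (plus strand), Snord15b on chr7:99479563-99479707 (minus), Snord32a on chr7:45127382-45127464 (minus), Snord104 on chr11:106500993-106501062 (plus), Snora21 on chr11:97781639-97781775 (minus), Snora7a on chr6:115807975-115808114 (minus), Snora35 on chrX:146994381-146994508 (plus) and Rmrp on chr4:43492788-43493058 (minus).
Snord22: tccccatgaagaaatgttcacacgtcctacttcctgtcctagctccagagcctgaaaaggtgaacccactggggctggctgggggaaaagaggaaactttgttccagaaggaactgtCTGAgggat
Snord15b: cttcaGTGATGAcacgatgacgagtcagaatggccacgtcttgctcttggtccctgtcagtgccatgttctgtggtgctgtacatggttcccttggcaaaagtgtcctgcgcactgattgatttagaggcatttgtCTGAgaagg
Snord32a: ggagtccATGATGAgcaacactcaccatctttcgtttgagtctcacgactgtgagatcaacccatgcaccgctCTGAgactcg
Snord104: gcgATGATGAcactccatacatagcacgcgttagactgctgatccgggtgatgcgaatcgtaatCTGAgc
Snora21: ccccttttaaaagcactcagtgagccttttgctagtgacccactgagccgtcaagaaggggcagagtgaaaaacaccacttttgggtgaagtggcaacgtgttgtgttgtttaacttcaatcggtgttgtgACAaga
Snora7a: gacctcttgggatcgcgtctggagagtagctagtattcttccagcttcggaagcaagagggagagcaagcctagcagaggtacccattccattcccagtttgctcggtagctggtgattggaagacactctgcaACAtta
Snora35: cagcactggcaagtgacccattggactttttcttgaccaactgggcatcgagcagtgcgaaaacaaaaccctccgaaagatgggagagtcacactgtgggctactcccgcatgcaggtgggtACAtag
Rmrp: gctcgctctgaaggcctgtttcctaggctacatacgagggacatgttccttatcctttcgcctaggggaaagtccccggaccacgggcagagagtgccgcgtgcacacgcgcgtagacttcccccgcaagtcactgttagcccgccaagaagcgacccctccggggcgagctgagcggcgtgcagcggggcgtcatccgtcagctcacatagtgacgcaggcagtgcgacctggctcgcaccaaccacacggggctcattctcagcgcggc
The C box as spelled was found in 27 of the 46 Snord members (58.7%) and the D box in 41 (89.1%). Among the 96 Snord genes with a single sequence in the annotation, they were found in 65 (67.7%) and 90 (93.8%). The ACA trinucleotide was found in 23 of 25 Snora members with a single sequence (92.0%) and in 36 of the 38 Snora genes of the annotation with a single sequence (94.7%). Snord22 holds the D box but not either spelling of the C box.

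The reads assigned to genes ranged from 2660395 to 3669748 per library, and members took 0.322 to 0.407% of them. Between 82 and 93 of the 98 members had a read in each library, and 54 had one in all 16. Reads that fell outside annotated features made up 41.1 to 43.4% of the listed reads in Con+Con and 38.7 to 42.2% in BACHD+Con, and reads with several alignments averaged 34.1% and 36.1%. All 11 markers of striatal projection neurons were read in every library, with a summed level of 3690.5 to 7582 CPM. Markers of tissue next to the striatum varied more: the 7 choroid plexus markers summed to 112 to 10802 CPM, highest in BACHD+Con 2 and Con+Con 1, and the 12 cortical excitatory neuron markers to 236 to 1474 CPM, lowest in BACHD+Con 2, BACHD+Con 3 and Con+Con 4. By group, the choroid plexus sum ran from 219 to 7733 CPM in Con+Con, 231 to 3057 in Con+Foxp2, 112 to 10802 in BACHD+Con and 164 to 4976 in BACHD+Foxp2, with Kcne2 at 0 in a library of 3 groups, Sostdc1 in one of BACHD+Con and Folr1 in one of BACHD+Foxp2. The cortical sum ran from 305 to 1474 CPM, 428 to 1064, 236 to 1203 and 638 to 1242 in the same order, with Slc30a3 at 0 in a library of Con+Con and of BACHD+Con and Neurod1 in one of Con+Con. In such bulk tissue, fewer cells of a type and less RNA per cell cannot be told apart.

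Over the 16 libraries the members collected 175533 reads. The 2 RNase RNAs held 44.6% of them and the Snhg genes with Gas5 36.3%, while the 80 small RNAs held 11.5% (Snord), 5.91% (Snora) and 1.65% (Scarna). Rpph1, the RNA of RNase P, had 56527 reads, Snhg11, a long transcript of neurons, 51413, and Rmrp 21840. The most read small RNAs were Snord15b (6556 reads), Snord22 (4347), Snora74a (2863), Snord17 (2835) and Scarna13 (2082). Among the long hosts, Gas5, which carries a group of box C/D snoRNAs, had 5943 reads and Snhg14, a very long transcript of the imprinted region around Ube3a, 1897.

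Per length the order changed. Rpph1 reached a mean of 3653 CPM per kb of exon and Rmrp 1645, followed by Snord15b at 934 and Snord22 at 712. Snora74a stood at 302 CPM per kb, Snord17 at 246, Snora35 at 183, Snora7a at 173, Snora21 at 164 and Scarna13 at 156. Snhg11 stood at 124 CPM per kb and Gas5 at 32.5, while Snhg1, the host of Snord22, stood at 1.93 and Snhg4, the host of Snora74a, at 1.67. Snord22 and Snora74a were thus read more per base than their own hosts. Snord22 overlaps an annotated exon of Snhg1, as 34 of the small RNA members do an exon of their host. How reads there were assigned was not tested. The median was 23.0 CPM per kb over the 46 Snord genes, 21.9 over the 27 Snora genes, 9.26 over the 7 Scarna genes and 3.49 over the 16 long hosts. The 10 Snord members of 100 bases or more had a median of 67.4 CPM per kb and the 36 shorter ones 21.5, and the part of fragment length in this was not tested.

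**Figure D1:**
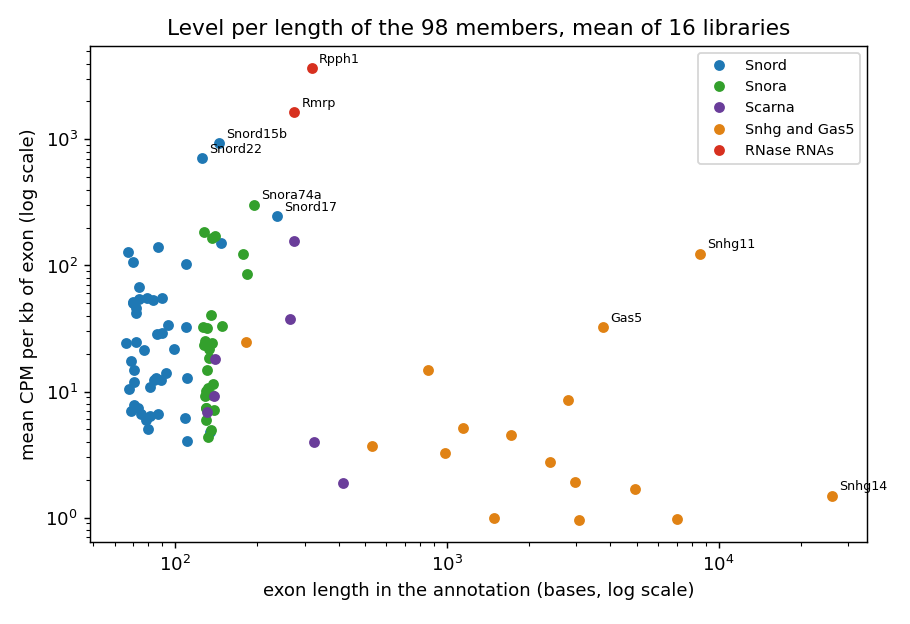
Mean CPM per kb of exon over 16 libraries (y axis, log scale) against exon length in bases (x axis, log scale), 1 point per member, coloured by class. Rpph1 and Rmrp lie highest, at 3653 and 1645 CPM per kb, and most long host transcripts lie low at the right. Exceptions are Snhg11 at 124 CPM per kb, above the Snord and Snora medians of 23.0 and 21.9, and Snhg9, of 183 bases, at 24.6 CPM per kb among the small RNAs.

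Several levels carry a limit of assignment. Snord15a and Snord15b, both inside the ribosomal protein gene Rps3, are near copies, as are Rpph1 and the RNase P RNA-like gene Rprl3, so reads may be split between them. Rpph1 overlaps Ccnb1ip1 on the same strand, Snhg3 overlaps Rcc1 on the same strand, and Rmrp, Gas5, Snhg9, Snhg14 and Snhg6 overlap Ccdc107, Zbtb37, Rps2, Ube3a and Mcmdc2, and the sources used here do not say if strand was used in counting. Gene counts also do not tell a mature small RNA from host precursor RNA that spans it. The median annotated length was 81 bases for the Snord and 133 for the Snora members. How well the RNA extraction and library protocol recovered RNA so short was not tested, so levels here are those of the libraries.

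The level of all small RNAs together was lowest in Con+Con and highest in BACHD+Con. The summed level of the 80 Snord, Snora and Scarna members was 589 ± 70.5 CPM in Con+Con (mean ± SD, n = 4), 666 ± 113 in BACHD+Foxp2, 708 ± 66.3 in Con+Foxp2 and 803 ± 62.4 in BACHD+Con. Every BACHD+Con library, from 741 CPM up, lay above every Con+Con library, at 665 CPM or less, while neighbours in this order overlapped. The Snora members alone summed to 271 ± 19.3 CPM in BACHD+Con, with a lowest library of 245, against 185 ± 35.6 in Con+Con, 205 ± 38.9 in Con+Foxp2 and 197 ± 33.6 in BACHD+Foxp2. The highest library of those other 3 groups was at 233, in Con+Foxp2. The Snord members summed to 352 ± 34.3 CPM in Con+Con, 438 ± 26.2 in Con+Foxp2, 466 ± 46.6 in BACHD+Con and 414 ± 66.7 in BACHD+Foxp2. The long hosts were ordered differently, at 1303 ± 157, 1516 ± 76.9, 1163 ± 251 and 1269 ± 146 CPM, and Snhg11 made up most of each sum.

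Taken one by one, 39 of the 80 small RNAs (48.75%) had their lowest group mean in Con+Con and 43 (53.75%) their highest in BACHD+Con. Among the 38 of them with enough reads to test, these counts were 24 (63.2%) and 22 (57.9%). The corresponding shares over all 13563 genes tested were 24.0% and 25.1%. Of the 16 long hosts, 1 was lowest in Con+Con and 3 were highest in BACHD+Con. The share of reads outside features was on average 42.2% in Con+Con, 41.1% in Con+Foxp2, 40.7% in BACHD+Foxp2 and 40.2% in BACHD+Con. The groups lowest and highest in small RNA level thus had the highest and lowest mean share, but the groups between did not keep this order. Nor did single libraries: Con+Con 2 had the largest share, 43.4%, and the highest small RNA sum of its group, 665 CPM. The part of this share in the result was not tested beyond the fit with it as a term. In that fit the median of the tested members in BACHD+Con against Con+Con was 0.45 on the log2 scale, against 0.36 without it. Single members moved either way with this term: Snora78 went from 0.95 to 0.22 and Snord22 from 0.67 to 0.39, while Snora7a went from 0.60 to 0.93. The shares of reads outside features overlapped between Con+Con and BACHD+Con. The share of reads with several alignments did not overlap: it was at most 34.6% in the Con+Con libraries and at least 34.96% in the BACHD+Con libraries, with means of 34.1% and 36.1%, and 35.04% in BACHD+Foxp2 and 35.1% in Con+Foxp2. Its group means thus had the same order as the summed small RNA level, and its part in that level was not tested.

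**Figure D2:**
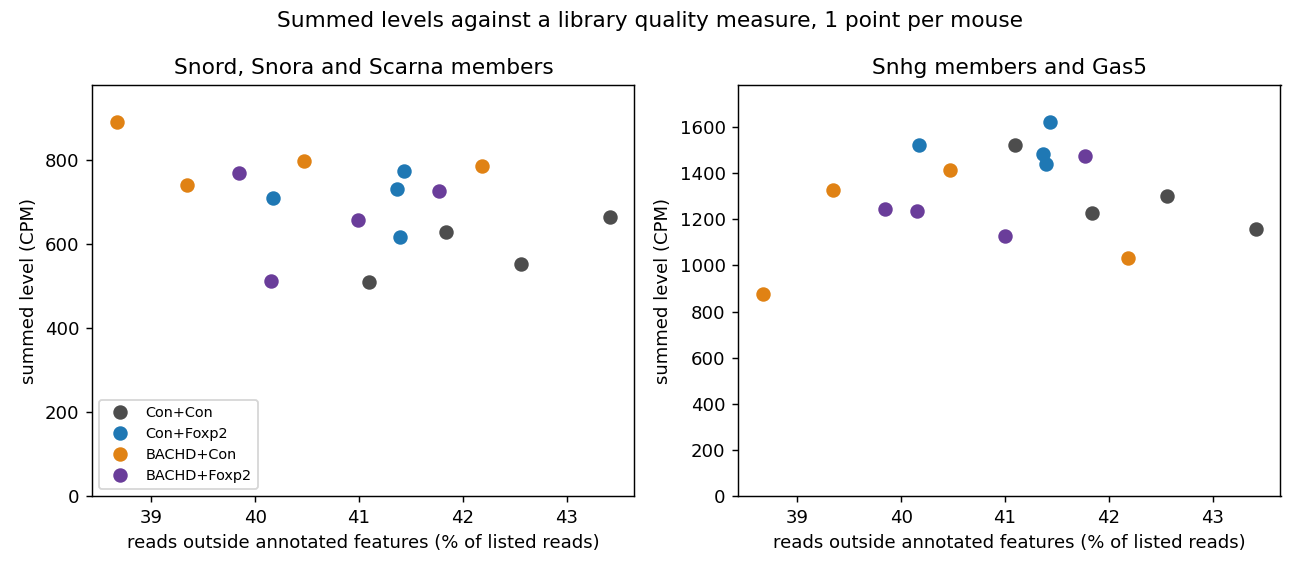
Summed CPM of the 80 small RNAs (left) and of the 16 long host transcripts (right) on the y axis, against the share of listed reads outside annotated features on the x axis, 1 point per mouse, coloured by group. The 4 BACHD+Con libraries lie at 741 CPM or more in the left panel and the 4 Con+Con libraries at 665 CPM or less, and Con+Con 2 has the largest share outside features, 43.4%.

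Tests were run on 13563 genes that passed a filter on low counts, among them 54 of the 98 members: 20 Snord, 15 Snora, 3 Scarna, 14 long hosts and both RNase RNAs. The 44 others, with 20 to 119 reads each, are described at the end. The filter can admit a gene through 1 group in which it is high, so counts over the 54 describe them and support nothing. A gene was called where edgeR's quasi-likelihood test gave a Benjamini-Hochberg adjusted p under 0.05 over all genes tested. The comparisons share groups (Con+Con serves in those of virus in control mice and of genotype under the control virus, for example), so values from them are set side by side only.

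The first comparison asks how the Foxp2 virus changed the striatum of control mice. By edgeR, 0 of the 54 members were called, where 0.229% of all genes tested were (31 genes). Unadjusted, 7 members had p under 0.05, or 13.0% of those tested where 7.04% of all genes did. DESeq2 called 1, Snhg4. The tested members had a median log2 fold change of 0.20 and 36 were higher, against a median of 0.00 and 49.4% higher over all genes. The Snord genes were higher in 17 of 20 cases and the Snora genes in 9 of 15, and the long hosts in 7 of 14. The groups did not overlap for 6 members that were higher (Rpph1, Snord22, Snora7a, Snord87, Snord32a and Snora68), or 11.1% of the 54 against 2.71% of all genes, and for 2 that were lower (Snhg4 and Snhg9), or 3.70% against 2.29%.

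Snord22, a box C/D RNA inside Snhg1, stood at 55.5, 60.2, 68.8 and 83.0 CPM in the Con+Con mice and at 93.1, 88.0, 104 and 90.9 in the Con+Foxp2 mice. The Con+Foxp2 mice all lay higher, with a log2 fold change of 0.50 (SE 0.18, edgeR adjusted p = 0.49). Snora7a, from within the ribosomal protein gene Rpl32, stood at 17.1, 21.9, 11.3 and 16.7 CPM and at 28.7, 23.2, 27.8 and 32.2. Its groups did not overlap either, at a log2 fold change of 0.74 (SE 0.28, edgeR adjusted p = 0.53). Snord32a, a guide of ribosomal RNA methylation in an intron of the ribosomal protein gene Rpl13a, was read at 2.66, 3.54, 2.57 and 1.12 CPM and at 7.41, 4.25, 5.30 and 5.19. All 4 Con+Foxp2 mice were higher, and the log2 fold change of 1.14 (SE 0.52) was the largest among the tested members, followed by 0.91 (SE 0.71) for Snora64 and 0.88 (SE 0.63) for Snord82. The Snora64 value was 0.55 without Con+Con 3 and 1.45 with the striatal projection neuron marker sum as a term, and the Snord82 value 0.55 without Con+Con 4 and 0.56 without the 3 libraries lowest in cortical markers.

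Snhg4, the host of the box H/ACA RNA Snora74a, stood at 7.67, 17.7, 15.1 and 8.93 CPM in Con+Con and at 5.15, 4.58, 1.99 and 5.73 in Con+Foxp2. Every Con+Foxp2 mouse lay below every Con+Con mouse, at a log2 fold change of -1.49 (SE 0.40), with an edgeR adjusted p of 0.171 and a DESeq2 adjusted p of 0.0479. Snhg9, the host of Snora78 beside the ribosomal protein gene Rps2, was at 5.02, 9.65, 4.82 and 4.84 CPM and at 3.22, 1.96, 0.994 and 2.46. It too did not overlap, at -1.47 (SE 0.58), though 1 Con+Con mouse stood well above the other 3. Snhg3 had the most negative log2 fold change, -1.84 (SE 0.82), at 58 reads over the 4 Con+Con libraries and 17 over the 4 Con+Foxp2 libraries, and its groups overlapped.

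Rpph1 stood at 1027, 1064, 1007 and 1091 CPM in Con+Con and at 1233, 1187, 1135 and 1258 in Con+Foxp2. The groups did not overlap, at a small log2 fold change of 0.20 (SE 0.11). Snord15b, from within Rps3, stood at 99.1, 143, 106 and 128 CPM and at 137 to 156 in Con+Foxp2, and 1 control mouse reached into the range of the virus group, at 0.30 (SE 0.14). Rmrp showed no such shift, with means of 415 ± 49.7 and 412 ± 24.7 CPM without and with the Foxp2 virus (SD, n = 4).

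**Figure D3:**
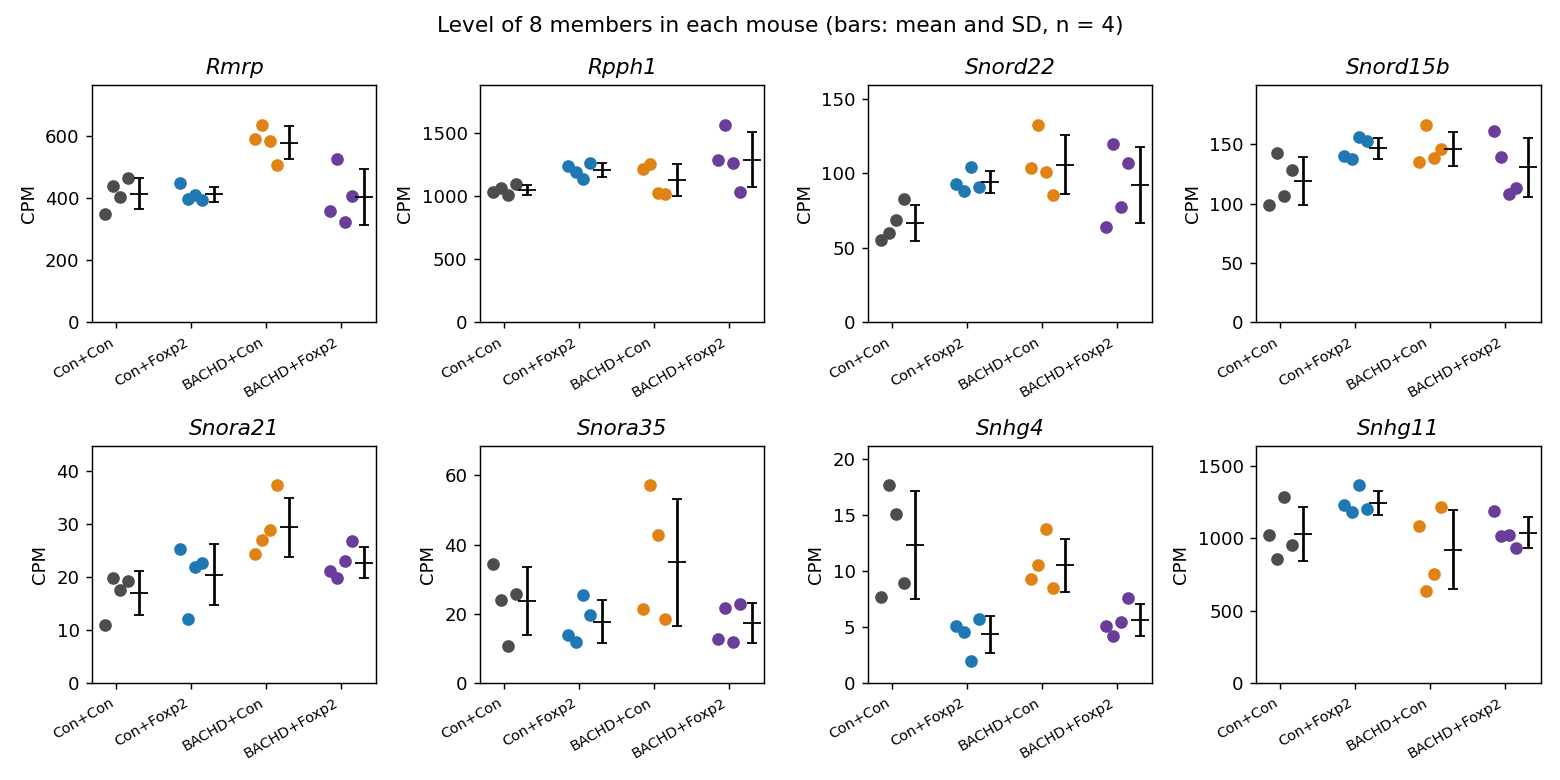
CPM of 8 members in each of the 16 mice (y axes from 0), by group (x axis), with 1 dot per mouse and the mean with SD (n = 4) to the right of the dots. Snhg4 is lower in both Foxp2 groups than in the control-virus group of the same genotype, and Rmrp is highest in BACHD+Con, at 579 ± 54.3 CPM.

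The second comparison gave the effect of the same virus in BACHD mice. By edgeR, 0 of the 54 members were called, where 0.243% of all genes tested were (33 genes). Unadjusted, 8 members had p under 0.05, or 14.8% of those tested where 7.73% of all genes did, and 7 of those 8 were lower. DESeq2 called 1, Rmrp. The tested members had a median log2 fold change of -0.26 and 40 of 54 were lower, against a median of 0.00 and 50.2% higher over all genes. Single libraries moved this median: it was -0.41 without BACHD+Foxp2 2 and -0.15 without BACHD+Foxp2 3, and -0.39 by limma voom. The Snora genes were lower in 14 of 15 cases, the Snord genes in 15 of 20 and the long hosts in 8 of 14. The groups did not overlap for 0 members that were higher, where 1.78% of all genes did not, and for 2 that were lower, Snhg4 and Snora44, or 3.70% against 2.36%.

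Rmrp, the RNA of RNase MRP, stood at 589, 637, 585 and 506 CPM in the BACHD+Con mice and at 358, 526, 323 and 407 in the BACHD+Foxp2 mice. Of the BACHD+Foxp2 mice, 3 lay below all BACHD+Con mice and 1 reached into their range. The log2 fold change was -0.52 (SE 0.13), with an edgeR adjusted p of 0.118 and a DESeq2 adjusted p of 0.0303. Without BACHD+Foxp2 replicate 2, the mouse that overlapped, edgeR gave -0.68 with an adjusted p of 0.0104, and with no filter on low counts -0.52 with 0.0385. The adjusted p had a range of 0.0104 to 0.688 over the alternatives run, by edgeR, limma or DESeq2.

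Several box H/ACA RNAs were among the lower members. Snora35, which lies in an intron of the serotonin receptor gene Htr2c, stood at 21.3, 57.1, 42.6 and 18.5 CPM in BACHD+Con and at 12.8, 21.6, 12.04 and 23.0 in BACHD+Foxp2. Mice 2 and 3 of BACHD+Con stood apart from all others and the remaining pair overlapped the virus group. The log2 fold change was -1.01 (SE 0.37, edgeR adjusted p = 0.459), and it was -0.20 without the 3 libraries lowest in cortical markers, which include both of those mice, and -0.66 without the 2 libraries highest in choroid plexus markers. Choroid plexus is known for strong Htr2c expression, and the choroid plexus sum was 10802 CPM in BACHD+Con 2 and 148 in BACHD+Con 3. Con+Con 1, at 7733 CPM, had the most Snora35 reads of its group, 117 against 33 to 75. BACHD+Foxp2 3, at 4976 CPM, had 35 Snora35 reads, where its group had 35 to 72. The part of tissue makeup in the Snora35 values was not tested further.

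Snora23, inside the nuclear import gene Ipo7, averaged 20.9 ± 6.66 CPM under the control virus and 11.4 ± 4.97 under the Foxp2 virus (SD, n = 4), a log2 fold change of -0.89 (SE 0.35). Snora81, inside the translation factor gene Eif4a2, was at 27.3 ± 7.07 and 17.6 ± 3.56 CPM, or -0.63 (SE 0.27). Snora28, inside the translation factor gene Eif5, had the most negative value, -1.09 (SE 0.62), which was -1.78 without BACHD+Foxp2 4. Without the 3 libraries lowest in cortical markers the Snora23 value was -0.47. None of these 3 passed the adjustment, and the groups overlapped for each.

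Among the long hosts, Snhg4 stood at 9.28, 10.6, 13.8 and 8.48 CPM in BACHD+Con and at 5.12, 4.25, 5.51 and 7.65 in BACHD+Foxp2. As in control mice, every mouse given the Foxp2 virus lay lower, at -0.90 (SE 0.40, edgeR adjusted p = 0.594). Snhg5 was at 6.87, 9.58, 13.4 and 4.24 CPM and at 6.58, 2.62, 5.51 and 2.23, overlapping groups with a log2 fold change of -1.02 (SE 0.44). It was -0.41 without the 3 libraries lowest in cortical markers. Snhg8 was at 15.5 ± 1.81 and 8.39 ± 5.36 CPM, or -0.87 (SE 0.41), and -0.58 without BACHD+Foxp2 1. Snhg14 had the largest positive value, 0.60 (SE 0.25), at 32.99, 15.2, 32.9 and 29.7 CPM in BACHD+Con and 51.9, 37.6, 50.9 and 28.1 in BACHD+Foxp2. Of the latter, 1 mouse lay within the BACHD+Con range, and the Snhg14 value was 0.40 without BACHD+Con 2. Rpph1, the partner RNA of RNase P, did not follow Rmrp: it was at 1213, 1252, 1026 and 1014 CPM and at 1281, 1564, 1259 and 1034, or 0.19 (SE 0.11).

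**Figure D4:**
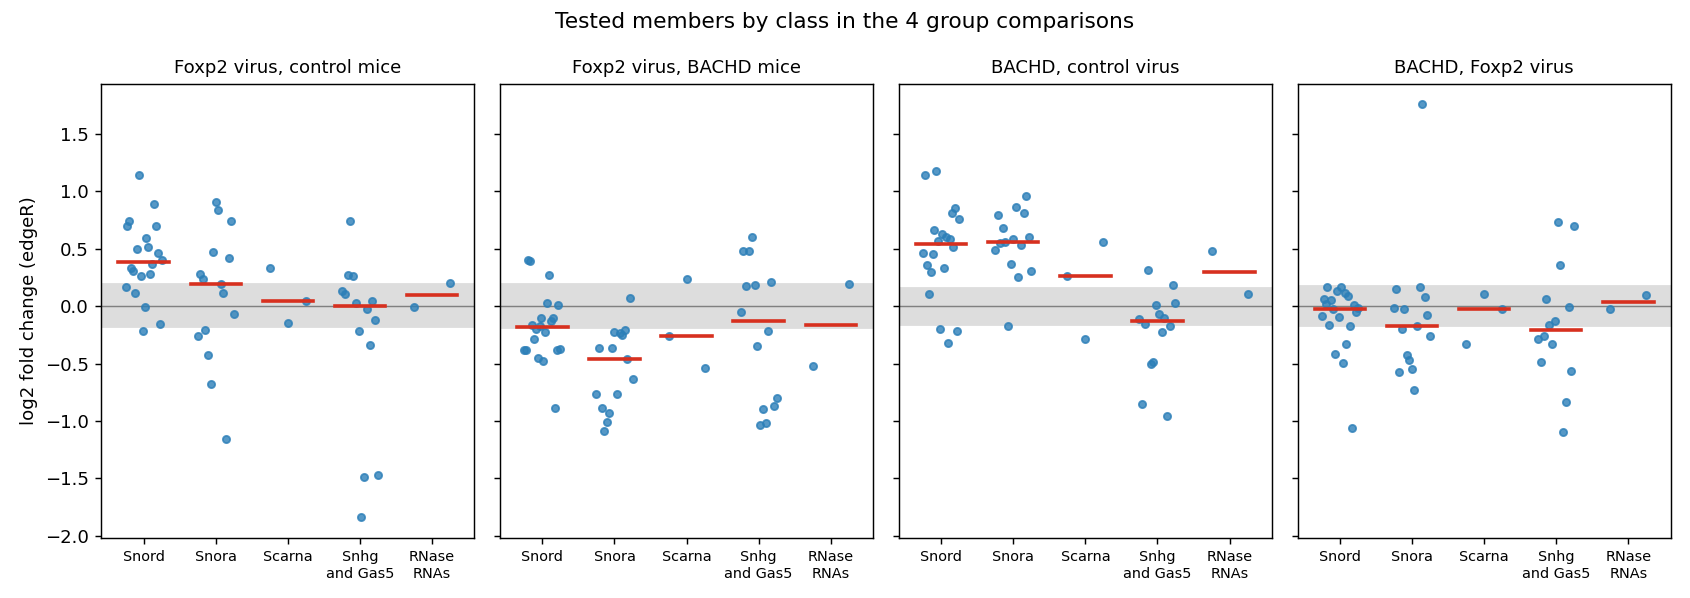
Log2 fold change from edgeR (y axis) of the 54 tested members, 1 dot per member, by class (x axis), in each of the 4 comparisons of 2 groups. Red bars are class medians and the grey band holds the middle 50% of all 13563 genes tested. The Snora median is 0.56 for BACHD under the control virus and -0.46 for the Foxp2 virus in BACHD mice.

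The third comparison set BACHD against control mice, both under the control virus. By edgeR, 0 of the 54 members were called, where 0.0147% of all genes tested were (2 genes), and DESeq2 and limma also called 0. At an unadjusted p under 0.05 there were 10 members, or 18.5% of those tested where 3.44% of all genes were, and all 10 were higher in BACHD. The tested members had a median log2 fold change of 0.36 and 39 were higher, against a median of 0.00 and 50.1% higher over all genes. The Snora genes were higher in 14 of 15 cases, at a class median of 0.56, and the Snord genes in 17 of 20, at 0.54. The long hosts were higher in 4 of 14, at -0.13. The groups did not overlap for 6 members that were higher (Rmrp, Snord22, Snord17, Snora7a, Snora21 and Snord104), or 11.1% against 1.19% of all genes, and for 1 that was lower, Snhg6, or 1.85% against 1.24%.

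Rmrp stood at 349.9, 439, 405 and 465 CPM in the Con+Con mice and, as above, at 589, 637, 585 and 506 in the BACHD+Con mice. All 4 BACHD+Con mice were higher, at a log2 fold change of 0.48 (SE 0.13) with an edgeR adjusted p of 1.00. Snord22 stood at 104, 133, 101 and 85.6 CPM in BACHD+Con, all above the 55.5 to 83.0 of Con+Con. Its log2 fold change was 0.67 (SE 0.18), and it was 0.39 with the share of reads outside features as a term and 0.46 without the 2 libraries highest in choroid plexus markers. Snora21, from an intron of the ribosomal protein gene Rpl23, stood at 10.9, 19.9, 17.7 and 19.3 CPM in Con+Con and at 24.4, 27.1, 28.9 and 37.4 in BACHD+Con. The groups did not overlap, at 0.80 (SE 0.25).

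Snord104 was read at 3.25, 5.79, 4.50 and 4.84 CPM in Con+Con and at 10.997, 11.2, 9.40 and 8.86 in BACHD+Con. These ranges were wide apart, and the log2 fold change was 1.14 (SE 0.41). Snord32a, the member with the largest value, 1.18 (SE 0.52), was at 6.19, 7.93, 5.04 and 3.47 CPM in BACHD+Con, and its lowest mouse fell within the Con+Con range. It was 0.73 without the 3 libraries lowest in cortical markers. After Snord32a and Snord104, Snora78 had the largest value, 0.95, at 143 reads over the 16 libraries. The Snora78 value was 0.22 with the share of reads outside features as a term. It was 0.61 without the 2 libraries highest in choroid plexus markers, and above 0.95 without the 3 libraries lowest in cortical markers. Snora74a stood at 53.7, 63.7, 37.3 and 45.0 CPM and at 87.3, 71.3, 61.8 and 69.0, with 1 control mouse inside the BACHD range, at 0.53 (SE 0.17). Snord17, from within the sorting nexin gene Snx5, was at 49.9, 42.8, 57.5 and 55.1 CPM and at 58.8, 83.2, 64.8 and 73.6, with no overlap and a difference of 0.45 (SE 0.18), or 0.25 with the share of reads outside features as a term. Snord87, inside Snhg6, was at 8.79 ± 0.599 and 15.9 ± 4.52 CPM (SD, n = 4), or 0.85 (SE 0.34). Snora7a was at 22.3, 25.4, 27.5 and 26.2 CPM in BACHD+Con, above all 4 Con+Con mice, or 0.60 (SE 0.29), and 0.93 with that same term.

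On the lower side, Snhg6, the host of Snord87, stood at 7.97, 11.6, 9.64 and 5.21 CPM in Con+Con and at 5.16, 4.62, 4.03 and 3.85 in BACHD+Con. The groups touched but did not overlap, at -0.96 (SE 0.47, edgeR adjusted p = 1.00). Snhg1, the host of Snord22, was at 7.38, 5.47, 7.07 and 7.07 CPM and at 2.75, 3.63, 5.71 and 2.70, with 1 BACHD mouse inside the control range, at -0.86 (SE 0.45). Snhg14 had a log2 fold change of -0.50 (SE 0.25). It was -0.30 without BACHD+Con 2, -0.33 without the 3 libraries lowest in cortical markers, -0.17 without the 2 highest in choroid plexus markers and -0.10 with the share of reads outside features as a term. Gas5 was at 125 ± 14.9 and 116 ± 19.4 CPM and Snhg11 at 1031 ± 185 and 923 ± 273 (SD, n = 4), differences smaller than their spread.

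The fourth comparison set BACHD against control mice under the Foxp2 virus. By edgeR, 0 of the 54 members were called, where 0.059% of all genes tested were (8 genes), and DESeq2 and limma also called 0. Unadjusted, 1 member, Snhg5, had p under 0.05, or 1.85% of those tested where 4.18% of all genes did. The median log2 fold change of the tested members was -0.06 and 19 were higher, against 0.01 and 51.3% over all genes. The Snora median was -0.18 and the Snord median -0.02, so these classes lay near 0 here. The member median was -0.20 without BACHD+Foxp2 1, -0.19 without BACHD+Foxp2 2, -0.17 without Con+Foxp2 2 and -0.10 without Con+Foxp2 1. Snhg5, a host of box C/D snoRNAs, stood at 9.34, 8.18, 9.61 and 9.01 CPM in Con+Foxp2 and at 6.58, 2.62, 5.51 and 2.23 in BACHD+Foxp2. The groups did not overlap, at -1.10 (SE 0.44, edgeR adjusted p = 0.998). Snord83b, inside the ribosomal protein gene Rpl3, was the other member whose groups did not overlap (both lower, 3.70% of those tested against 1.6% of all genes), at -1.06 (SE 0.61), and the groups did not overlap for 0 members that were higher, against 1.4% of all genes. Snora75, inside the nucleolin gene Ncl, had the largest positive value, 1.76 (SE 0.89), or 1.14 by limma voom, and its groups overlapped.

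The interaction of genotype and virus compared the log2 fold change by the virus between the 2 genotypes. Foxp2 itself averaged 4015 CPM in Con+Foxp2 and 1595 in BACHD+Foxp2. Genotype and the level of Foxp2 reached thus cannot be told apart, here or in the fourth comparison. By edgeR, 0 of the 54 members and 0.0% of all genes tested were called, and DESeq2 and limma called 0 members. Unadjusted, 5 members had p under 0.05, or 9.26% where 3.8% of all genes did: Snord32a, Snora23, Snord22, Rmrp and Snord15b. All 5 interactions were negative, which is to say that the log2 fold change by the virus was lower in BACHD than in control mice: -1.59 (SE 0.73), -1.12 (SE 0.49), -0.69 (SE 0.25), -0.51 (SE 0.18) and -0.47 (SE 0.20). The median interaction of the tested members was -0.48 and 41 were negative, against 0.01 and 51.3% positive over all genes. Of the Snora genes 14 of 15 and of the Snord genes 17 of 20 were negative, and of the long hosts 6 of 14. For Snord22 the log2 fold change by the virus was 0.50 in control and -0.20 in BACHD mice, for Snord15b 0.30 and -0.17, and for Snord32a 1.14 and -0.45. The Snora23 interaction was -0.69 without the 3 libraries lowest in cortical markers.

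When the virus effect was averaged over both genotypes, Snhg4 was the 1 member called, or 1.85% of those tested where 1.05% of all genes were. Snhg4 fell with the Foxp2 virus, by 1.19 on the log2 scale (SE 0.28, edgeR adjusted p = 0.034), or 2.28-fold, and stood lower in all 8 mice given the Foxp2 virus than in any mouse given the control virus (at most 7.65 against at least 7.67 CPM). The call rested on few reads, 274 over the 8 control-virus libraries and 124 over the 8 others. It was lost in 10 of 16 cases when 1 library was left out (Con+Con 2 or 3, Con+Foxp2 1, 2 or 3, BACHD+Con 2 or 3, BACHD+Foxp2 1, 2 or 3), with an edgeR adjusted p of 0.0501 to 0.119 in those cases, and a range of 0.00439 to 0.252 over every alternative run. With the striatal projection neuron marker sum as a term the value was -1.06 (adjusted p = 0.148). That sum was 5761 ± 2032 CPM in Con+Con, 4423 ± 474 in Con+Foxp2, 5495 ± 1233 in BACHD+Con and 4656 ± 688 in BACHD+Foxp2 (SD, n = 4), and its part in the Snhg4 result was not tested further. Marker sums of other cells also moved with the virus, all of their markers being read in every library. The 6 astrocyte markers summed to 1009.6 to 1395 CPM in Con+Con against 1461 to 1941 in Con+Foxp2, and to 997 to 1318 CPM in BACHD+Con against 1338 to 1745 in BACHD+Foxp2, without overlap in either genotype. The 7 microglia markers summed to 196 to 238 against 227 to 309 CPM in control mice, which overlapped, and to 179 to 216 against 250.1 to 298 CPM in BACHD mice, which did not. The 7 interneuron markers were lower with the Foxp2 virus, at 288 to 349 against 181 to 226 CPM in control mice and, with overlap, at 251 to 342 against 166 to 271 CPM in BACHD mice. The part of these cells in the Snhg4 result was not tested. Its snoRNA, Snora74a, had log2 fold changes by the virus of 0.11 (SE 0.17) in control and -0.25 (SE 0.17) in BACHD mice.

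The other averaged values did not pass the adjustment. For the virus, 7 members had an unadjusted p under 0.05, or 13.0% where 10.8% of all genes did. They were Snhg4, Snhg3 at -1.43 (SE 0.57), Snhg9 at -1.14 (SE 0.41), Snora35 at -0.71 (SE 0.26), Rmrp at -0.26 (SE 0.09), Rpph1 at 0.19 (SE 0.07) and Snhg14 at 0.43 (SE 0.17). The averaged Snora35 value was -0.29 without the 3 libraries lowest in cortical markers and -0.42 without the 2 highest in choroid plexus markers. For the genotype averaged over both viruses, 0 members were called by edgeR, DESeq2 or limma, where 0.0369% of all genes tested were by edgeR, and 8 had an unadjusted p under 0.05, or 14.8% where 4.05% of all genes did. Those were Snora75 at 1.28 (SE 0.61), Snord104 at 0.60 (SE 0.29), Snora21 at 0.47 (SE 0.18), Snora74a at 0.35 (SE 0.12), Snord22 at 0.32 (SE 0.13), Rmrp at 0.23 (SE 0.09), Snhg1 at -0.67 (SE 0.32) and Snhg6 at -0.90 (SE 0.33). The averaged Rmrp value was 0.15 without BACHD+Foxp2 2, and that of Snord22 was 0.15 with the share of reads outside features as a term.

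The annotation placed 77 of the 80 small RNAs inside another gene, and 76 of them lay in 62 hosts that the table counts. Hosts were sought on the same strand in GENCODE. Those of Snora74a (Snhg4), Snord64 (Snhg14), Snora17 and Snora43 (both Snhg7) came from RefSeq, with no strand given. Of these hosts, 19 encode ribosomal proteins and 9 are long hosts that are members themselves. For 32 small RNAs in 26 hosts both were tested. In BACHD against control mice under the control virus, the small RNA was higher in 28 of the 32 pairs, at a median of 0.56, while 10 of the 26 hosts were higher, at a median of -0.05, and in 29 of 32 pairs the small RNA had the more positive value. By the virus in control mice, 23 of the 32 small RNAs and 11 of the 26 hosts were higher, with medians of 0.29 and -0.13. By the virus in BACHD mice, 6 small RNAs and 11 hosts were higher, with medians of -0.32 and -0.09, and under the Foxp2 virus BACHD mice had 13 of each higher, with medians of -0.03 and -0.02. Across the pairs, which share libraries and in part hosts, the log2 fold change of the small RNA and of its host had a Pearson r of -0.08, -0.23, -0.11 and -0.24 in these 4 comparisons, given as a description. Of the 26 hosts 0 were called by edgeR in each of the 4, where 0.0147%, 0.229%, 0.243% and 0.059% of all genes tested were. At an unadjusted p under 0.05 there were 0, 3, 4 and 0 hosts, where 3.44%, 7.04%, 7.73% and 4.18% of all genes were.

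Single pairs showed the same separation. Under the control virus in BACHD mice Snord22 had a log2 fold change of 0.67 and its host Snhg1 -0.86, and Snord87 had 0.85 and its host Snhg6 -0.96. Snora21 had 0.80 and Rpl23 -0.22, and the level of Rpl23 was 16.6 ± 4.04 CPM in Con+Con and 14.2 ± 2.76 in BACHD+Con (SD, n = 4). Within 1 host the estimates for the small RNAs were also spread. In Rpl13a, Snord32a had 1.18, Snord34 0.56 and Snord35a -0.20, at 217, 173 and 130 reads over all libraries. Rpl13a itself had 0.01, at 185 ± 23.0 and 186 ± 20.2 CPM. The difference between a small RNA and its host was not itself tested, nor was that between small RNAs of 1 host. Where a small RNA overlaps an exon of its host, as Snord22 does in Snhg1, their counts may not be independent.

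**Figure D5:**
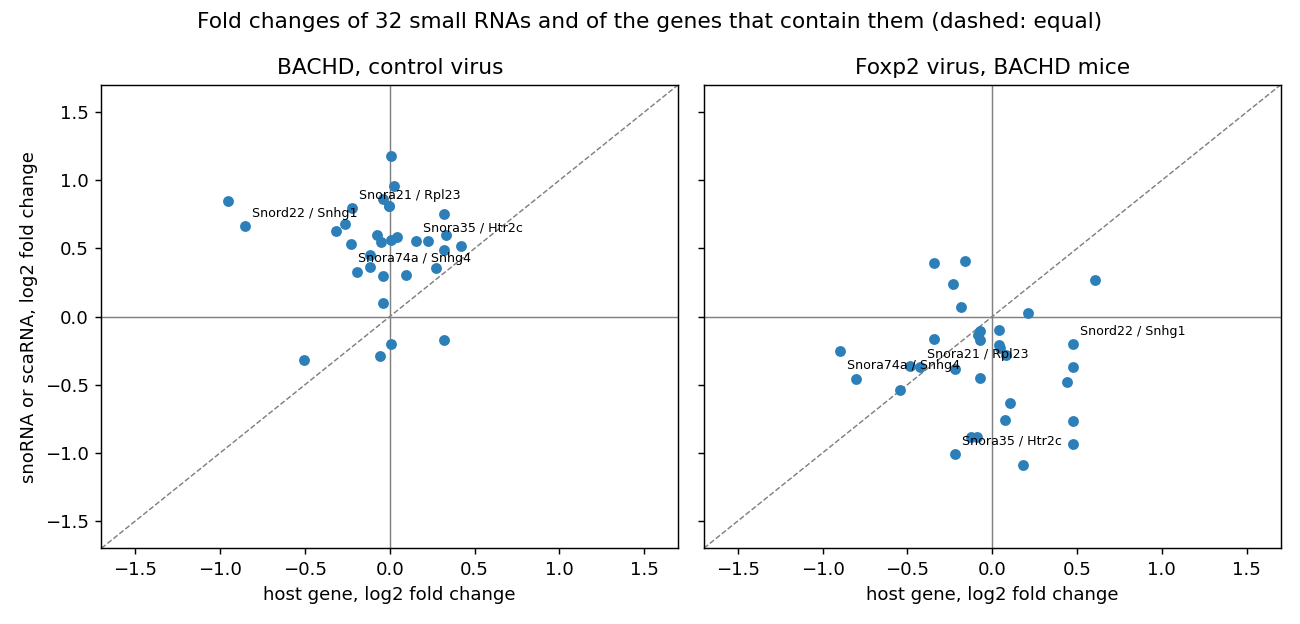
Log2 fold change of 32 small RNAs (y axis) against that of the gene that contains each (x axis), for BACHD against control mice under the control virus (left) and for the Foxp2 virus in BACHD mice (right). In the left panel 29 of 32 points lie above the dashed line of equal change, and in the right panel 10 do.

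The proteins that make and carry these RNAs were followed in the same fits. Of the core proteins of box C/D and H/ACA particles, such as fibrillarin and dyskerin, 7 were tested and 0 called in any comparison, with medians from -0.27 (virus in BACHD mice) to 0.00 (BACHD under the control virus) over the 4 comparisons of 2 groups. Of 14 assembly and Cajal body factors 0 were called, with medians from -0.11 to 0.09. Of 11 proteins of RNase P and RNase MRP 0 were called, with medians from -0.24 to 0.07. Of 10 tested noncoding RNAs of other kinds 0 were called, with medians from -0.02 to 0.03, and of the 47 tested hosts outside the members 0 were called, with medians from -0.08 to -0.01. Nonsense-mediated decay is the pathway that is known to degrade many spliced Snhg transcripts. Of its 14 factors, Smg5, which takes part in the removal of phosphate from Upf1, was the 1 called: it fell with the Foxp2 virus averaged over genotypes, by 0.40 on the log2 scale (SE 0.09, edgeR adjusted p = 0.0227), in a comparison where 1.05% of all genes tested were called. Smg5 stood at 147 ± 23.7 CPM in Con+Con, 112 ± 6.01 in Con+Foxp2, 151 ± 18.7 in BACHD+Con and 112 ± 9.48 in BACHD+Foxp2 (SD, n = 4). The astrocyte, microglia and interneuron marker sums above moved with the virus here too, and their part in the Smg5 result was not tested.

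The 44 members that were not tested summed to 44.2 ± 5.36 CPM in Con+Con, 48.7 ± 5.59 in Con+Foxp2, 53.1 ± 8.96 in BACHD+Con and 43.7 ± 4.56 in BACHD+Foxp2 (SD, n = 4). These ranges overlapped between all groups. They included Snhg10, the host of Scarna13, and Snhg18. At the reads threshold, the members with the fewest reads were Snord69 with 20, Snord53 and Snord90 with 22, Snord42b with 23 and Snord66 and Snord72 with 24, and just below it lay Snora2b with 19 and Snord33, Snord37 and Snord95 with 18.

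The authors deposited a table for each of 3 of these comparisons. The authors' deposited tables hold an adjusted p for 98 of the 98 members in BACHD+Con against Con+Con, for 41 in BACHD+Foxp2 against BACHD+Con and for 74 in Con+Foxp2 against Con+Con. Of the adjusted p-values given for members in the authors' deposited tables, 0 were under 0.05. In the authors' deposited tables the lowest adjusted p among the members was 0.297 for BACHD+Con against Con+Con (Rmrp, log2 fold change 0.42), 0.0755 for BACHD+Foxp2 against BACHD+Con (Rmrp, -0.46) and 0.104 for Con+Foxp2 against Con+Con (Snhg4, -0.65).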

How the data were processed

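Striatal RNA of 16 mice was taken up with a Qiagen RNeasy Lipid kit, made into libraries with Clontech SMARTer and sequenced on an Illumina HiSeq 2000, per the labels' protocols. STAR 2.4.0, HTSeq, DESeq2 and the build mm10 are named in the submitters' processing notes. The authors deposited 1 count of reads per gene for each library, with 5 summary lines that were kept out of the fits (per the file headers and values), and 3 comparison tables with log2 fold changes, p-values and mean normalized signal, from which only the members' values were copied. No per-sample column was left unused (0).

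Counts of 16 libraries were fitted together with edgeR 4.0.16 in R 4.3.3 (TMM scaling, filterByExpr, 12 residual degrees of freedom, quasi-likelihood test, two-sided, Benjamini-Hochberg over 13563 genes), in 7 comparisons. CPM values use the scaled library sizes. The marker sums and the floor for a count of 0 are exceptions and use the unscaled reads assigned to genes. Alternatives used DESeq2 1.42.0, limma 3.58.1 voom, DESeq2 size factors, no filter, the replicate number as a block, only the 8 libraries compared, each library left out, libraries lowest in cortical markers left out, a read-quality covariate, and a member threshold of 100 reads. Fits with choroid plexus or striatal markers as a term, or without the 2 libraries highest in choroid plexus markers, were chosen after seeing the data. The code was tested on simulated counts. A count of 0 in 1 library allows up to 0.817 to 1.13 CPM (3 reads of the gene total, for counting error only).

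The members and the gene lists (particle proteins, assembly factors, RNase P and MRP proteins, decay factors, other noncoding RNAs, hosts) were chosen with earlier results of these data known. Named genes were the Snhg panel, Gas5, Rmrp and Rpph1, the 5 most read members of each small RNA class, any gene called, the 3 highest and 3 lowest log2 fold changes of each comparison, the members next to the read threshold and hosts of named members. Any other gene named was chosen after its values were seen. Positions, hosts (any gene whose span holds the RNA on the same strand) and sequences came from GENCODE M21 on GRCm38. RefSeq gave positions and lengths where GENCODE did not hold the symbol as a single gene. For Rmrp the level per length used 275 bases, while the GENCODE sequence printed has 271. Where GENCODE gave no counted host, a RefSeq gene whose span holds the RNA was taken, without regard to strand. Of the 80 small RNAs, 78 had a single sequence. An intron or exon is that of any annotated transcript. No label says that mice with the same number are related, and each mouse is 1 replicate, so p-values measure the spread between mice.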

Additional observations from a re-analysis of the deposited data

Results flagged for a closer look

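In 33 members, each of the 4 groups was checked for a mouse far from the other 3 (Dixon's ratio for 4 samples). They were the Snhg panel, Gas5, Rmrp, Rpph1 and the 5 most read members of each small RNA class, some with too few reads to test. Such a mouse was found in 5 of 132 groups, where chance gives about 1 in 20. Snhg9 was at 9.65 CPM in Con+Con 2, against 4.82 to 5.02 in the other 3 mice, so the upper end of the control group in the comparison with Con+Foxp2 was set by this mouse. Snhg1 was at 5.47 CPM in the same library, below the 7.07 to 7.38 of the others. Snhg3 was at 6.55 CPM in BACHD+Con 4, against 3.78 to 4.03. Snhg7 was at 9.29 CPM in BACHD+Foxp2 3, against 0.638 to 1.64. Scarna6 was at 10.3 CPM in Con+Foxp2 1, against 8.62 to 8.84, a small gap in absolute terms.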

How the results depend on the processing

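Under 27 or 28 alternatives for each comparison, the median log2 fold change of the tested members kept its sign in all but one: it ran from 0.14 to 0.30 (virus in control mice, 0.14 to 0.27 with each library left out), -0.41 to -0.15 (virus in BACHD mice, the ends without BACHD+Foxp2 replicate 2 and replicate 3 in turn), 0.28 to 0.45 (BACHD under the control virus, 0.31 to 0.42 with each library left out), -0.20 to -0.05 (BACHD under the Foxp2 virus), -0.56 to -0.37 (interaction) and 0.05 to 0.18 (genotype averaged), while the virus averaged over genotypes ran from -0.04 to 0.08. The number of members called stayed at 0 for both genotype comparisons, the interaction and the averaged genotype. For the virus in control mice it was 1 (Snhg4) by DESeq2, and for the virus in BACHD mice 1 (Rmrp) by DESeq2 and with no filter, and 0 to 1 with each library left out. For the averaged virus it was 0 by limma voom, without the 3 libraries lowest in cortical markers, and with the share of reads outside features (Snhg4 adjusted p = 0.0599) or the striatal marker sum as a term, and 0 to 1 with each library left out. Without BACHD+Foxp2 replicate 2 the 1 member called there was Rmrp (-0.35, adjusted p = 0.0299), not Snhg4. Snhg3, with 58 reads or fewer per group, changed sign: BACHD under the Foxp2 virus was 0.73, but -0.29 by limma voom and -0.53 without BACHD+Foxp2 replicate 3 (up to 1.15 with another library left out), and the interaction was 0.81, but -0.55 and -0.46 (up to 1.22). The cause of these changes was not tested.

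Same-numbered mice of different groups showed little shared deviation: their residuals correlated at -0.17 to 0.10 over 24 pairs, and 1 of 16 libraries correlated best with its own number. Weak correlations over all tested genes cannot show that the numbers mark no shared litter, day or batch. The labels do not say. With the replicate number as a block, 0 members were called in any comparison, Snhg4 being at -1.18 (adjusted p = 0.0883) for the averaged virus, and the medians were 0.21, -0.33, 0.41 and -0.14 in the 4 comparisons of 2 groups. Depth limits the rest: 44 of 98 members had too few reads to test, and Snord32a, read at a few CPM, had an SE of 0.52 on the log2 scale.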
